A study of Caenorhabditis elegans with 2 samples.

Results

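LIN-39 is a Hox transcription factor of Caenorhabditis elegans, and the regions described here are its moderate binding peaks, those that lie just below the list of peaks called reproducible. They are 5750 of the 30000 regions in the relaxed list made from both replicates together, chosen by pooled signal alone: in order of the peak caller's signal they are all peaks that follow the optimal list, down to rank 10000. The optimal list is the reproducible set that the authors deposited, and it equals the top of the pooled list. The remaining 20000 regions are called weaker peaks here. The data are from ChIP-seq, in which DNA bound by an eGFP-tagged LIN-39 is immunoprecipitated and sequenced, in whole L3 larvae of strain OP18, of mixed sex. The strain carries unc-119(ed3) III and the integrated transgene wgIs18, so the tagged protein comes from an added copy of lin-39. There were 2 samples, biological replicates 1 and 2 of a single group, and no comparison between conditions exists. Larvae were pooled whole, so the number of cells in which a site is bound and the occupancy per cell cannot be told apart.

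Hox proteins set regional identity along the body axis. LIN-39 acts in the midbody, where it keeps vulval precursor cells competent, directs migrating neuroblasts and helps specify ventral cord neurons. Hox proteins bind short, degenerate sites, often beside cofactors of the Pbx and Meis families, which in the worm include CEH-20, CEH-40, CEH-60 and UNC-62. A relaxed peak list is called at a lenient threshold and can hold background beside true binding, and an optimal list is meant to be reproducible between replicates. Here the optimal list was the top of the pooled list, so a single optimal peak need not have similar ranks in the replicates. Both replicate lists held 95.4% of optimal peaks. The last optimal peak stood at rank 26467 in replicate 1 and 11408 in replicate 2.

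Sequences at 8 moderate summits show motifs of 2 kinds that were more frequent at the members' summits than beside them. Each line gives 61 bases of the plus strand of ce11, from RefSeq's sequence of that build, centred on the summit. Capitals mark matches of the motif by which the line was chosen, and matches of other motifs are not marked. The first 4 carry TGATNNAT, a Hox and cofactor site with 2 free bases, within 10 bp of the summit. They are those of the 6 strongest such members with a peak in both replicates whose 61 bases overlap no annotated exon. Outside the bases shown, the member near C15F1.1 overlaps the snoRNA gene C15F1.15. The last 4 carry GAGAGA, a GA repeat that is known from many promoters, and were chosen after the values were seen, by the same rule.
chrII:11902408-11902468, 1228 bp upstream of vab-23: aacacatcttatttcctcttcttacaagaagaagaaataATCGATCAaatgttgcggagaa
chrII:6992234-6992294, between genes, 2384 bp downstream of the start of C15F1.1: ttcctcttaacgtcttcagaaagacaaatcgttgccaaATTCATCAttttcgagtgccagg
chrII:9601216-9601276, in an intron near mrpl-53: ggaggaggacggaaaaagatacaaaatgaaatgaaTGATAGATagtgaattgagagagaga
chrX:9739497-9739557, in an intron near F15G9.5: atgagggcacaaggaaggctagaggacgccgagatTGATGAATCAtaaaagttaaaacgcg
chrIV:3004406-3004466, in an intron near Y54G2A.73: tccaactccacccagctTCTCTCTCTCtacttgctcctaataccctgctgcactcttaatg
chrX:2234162-2234222, upstream of T14F9.2: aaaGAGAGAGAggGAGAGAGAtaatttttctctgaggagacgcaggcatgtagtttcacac
chrX:6551188-6551248, upstream of svh-2: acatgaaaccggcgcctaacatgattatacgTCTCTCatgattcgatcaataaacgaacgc
chrV:6458433-6458493, between genes near acl-9: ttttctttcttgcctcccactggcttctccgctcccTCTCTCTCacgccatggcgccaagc

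The member near F15G9.5 holds overlapping matches on both strands, and the one on the minus strand is also a match of the stricter TGATTNAT. The member near mrpl-53 has a GA repeat at the edge of the window as well as the Hox site. In the replicates' own lists the 4 members with a Hox site stood at rank 6443 in replicate 1 and 5116 in replicate 2 (vab-23), 18949 and 2098 (C15F1.1), 16397 and 2379 (mrpl-53), and 3013 and 8849 (F15G9.5). The vab-23 member stood at similar ranks in the replicates and the other 3 far apart, with C15F1.1 and mrpl-53 stronger in replicate 2 and F15G9.5 in replicate 1. The 4 with GA repeats stood at 2601 and 7509 (Y54G2A.73), 4614 and 4887 (T14F9.2), 2421 and 7830 (svh-2), and 3168 and 6605 (acl-9).

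The pooled signal, the value that chose the members, ran from 16.38 to 33.09 over them, with a median of 21.7. It is the authors' own value per peak on the scale of the pooled list. The median was 52.6 over the optimal peaks and 9.38 over the weaker ones. The signal falls smoothly through both limits of the group. The first member had a signal of 33.0916, against 33.0919 for the last optimal peak. The first member lay at chrV:8937868-8938183 in a coding exon of the unc-23 region, and the last optimal peak at chrX:3115071-3115386 in the promoter of mai-1. The last member, rank 10000 at chrIV:14613275-14613590, had 16.3813, against 16.38 for the first weaker peak, at chrI:12291047-12291362. The deposited −log10 q-value was at its ceiling of 3.95 in 226 members (3.93%), the last of them at rank 4476, against every optimal peak. Over all members its median was 2.27 and its lowest value 1.47. All members were 316 bp wide with the summit in the middle, so width carries no information.

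Most members were seen in both replicates. At least 1 bp of a member was covered by a peak in both replicate lists for 3831 members (66.6%, 95% Wilson interval 65.4 to 67.8%), against 4053 optimal peaks (95.4%) and 4144 weaker peaks (20.7%). The share over all 30000 pooled peaks was 40.1%. Replicate 1 alone had a peak at 744 members (12.9%), replicate 2 alone at 1165 (20.3%), and neither list at 10. The pooled list contains the reads of both replicates, and a single set of control alignments served both, so these counts are a description and were not tested. The replicate 1 list holds 30000 peaks and the replicate 2 list 27572. Where a member was found, its median rank was 7325 in replicate 1 and 7235.5 in replicate 2. For peaks in both lists the larger rank over the smaller had a median of 2.09 in members (upper quartile 3.25) and 2.31 in optimal peaks (upper quartile 4.24). With a stricter match, a replicate summit within 100 bp of the member's summit, 46.4% of members were in both lists.

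**Figure D1:**
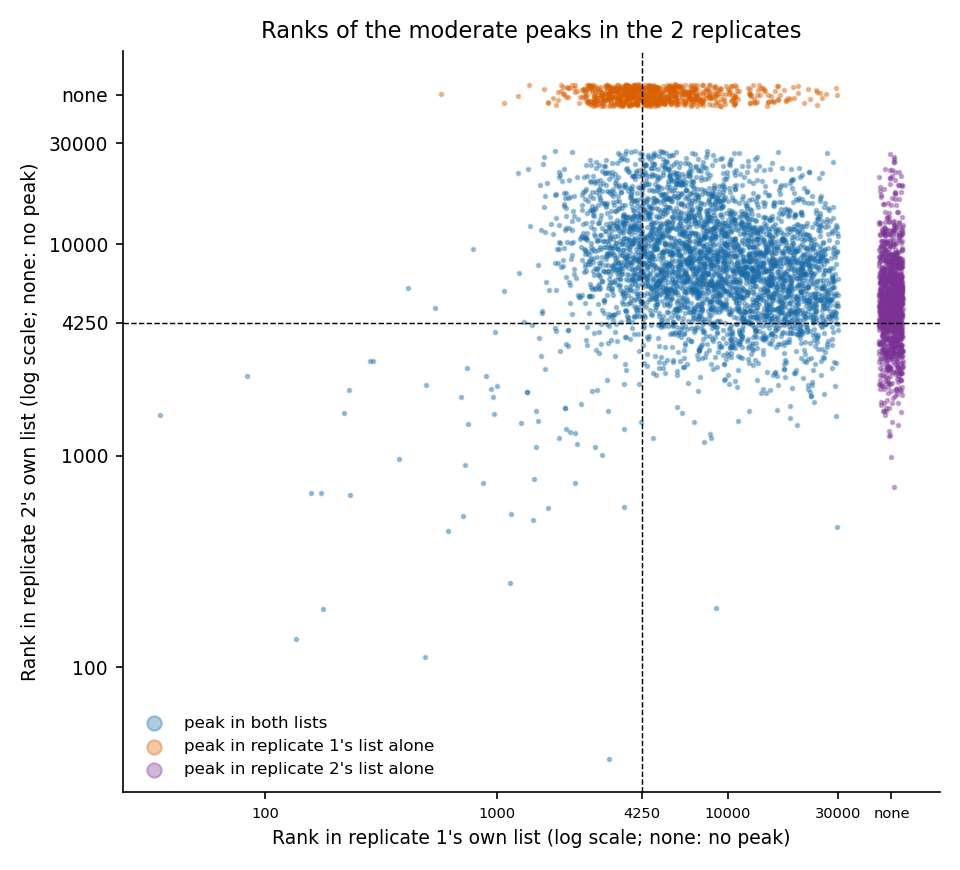
Rank of each moderate peak in the replicate 1 list (x axis, log scale) and in the replicate 2 list (y axis, log scale), 1 point per peak. Points at "none" have no peak in that replicate's list and are spread at random for visibility, and dashed lines mark the length of the optimal list. The 744 peaks of replicate 1 alone and the 1165 of replicate 2 alone form the bands at the edges, and 96 points lie in the top ranks on both axes, below and left of the dashed lines.

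Members in the top ranks of both replicates were few and mostly sat beside an optimal peak. Top ranks are here those of the strongest peaks of a replicate's own list, as many as the optimal list holds. There were 96 such members (1.67%), against 2408 optimal peaks (56.7%). A further 991 members reached the top ranks in replicate 1 alone and 739 in replicate 2 alone, and 3924 (68.2%) in neither. Of the 96, 65 (67.7%) had an optimal summit within 316 bp, against 102 of all 5750 members (1.77%). In such a pair the interval of the neighbouring strong peak also covers the member. The 8 members with the smallest worse rank of the 2 replicates were all of this kind, with an optimal summit 199 to 222 bp away. The first was at rank 136 in both replicates (chrIII:3801607-3801922, upstream of mtm-3), with a pooled signal of 23.4. The second, upstream of the splicing gene snr-4 at chrV:11980111-11980426, was at ranks 177 and 189. The others lay near ins-13, T28B11.1, chdp-1, csnk-1, pde-4 and nfki-1. Matching by summits within 100 bp, a rule added after the data were seen, left 9 members in the top ranks of both replicates. The first of those 9 lay 157 bp upstream of apm-3, an adaptor complex gene, at ranks 2839 in replicate 1 and 3366 in replicate 2. The next lay 8 bp upstream of osta-2, at ranks 3122 and 3525.

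Some members were strong in 1 replicate with no peak in the other list. The highest in replicate 1 without a peak in replicate 2 was at rank 577, in the promoter of F12F6.1 (chrIV:11583994-11584309). It was followed by rank 1076 in the promoter of peb-1, rank 1243 in a coding exon of the copa-1 region and rank 1378 between genes near M02B1.3. The highest in replicate 2 without a peak in replicate 1 was at rank 713, between genes near saeg-1, 203 bp from an optimal summit. The next was at rank 987 in the promoter of cul-1 (chrIII:10470967-10471282), the cullin of SCF ubiquitin ligases, and was 9794 bp from any optimal summit. Ranks 1240 near cpf-2 and 1261 near fbxb-72 came next, both within 224 bp of an optimal summit.

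Promoters were the largest class among the members, but coding exons took a much larger part than in the optimal list. A promoter is here the stretch that begins 1000 bp before the start of a protein-coding transcript and ends 200 bp inside it. The summits of 2184 members lay in promoters (38%, 36.7 to 39.2%), against 51.2% of optimal and 27.5% of weaker peaks. Over all pooled peaks the promoter share was 32.9%. The difference was −13.3 percentage points from the optimal list (95% Newcombe interval −15.2 to −11.3) and 10.4 points from the weaker peaks (9.05 to 11.8). Coding exons held 721 members (12.5%, 11.7 to 13.4%), against 62 optimal peaks (1.46%) and 29.1% of weaker peaks. Over all pooled peaks the coding exon share was 22%, and coding exons outside promoters make up 18.6% of the sequence. The members exceeded the optimal list by 11.1 points (10.2 to 12) and fell short of the weaker peaks by 16.6 points (interval of the difference −17.6 to −15.5). Intergenic summits were as frequent among members (23.1%) as among optimal peaks (23.2%), with a difference of −0.10 points (−1.78 to 1.57). Introns held 21.4% of members, against 19% of optimal peaks. Over all pooled peaks the intergenic share was 18.4% and the intron share 21.7%. Of the sequence, promoters make up 26.1%, intergenic stretches 22.9% and introns 27.1%.

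**Figure D2:**
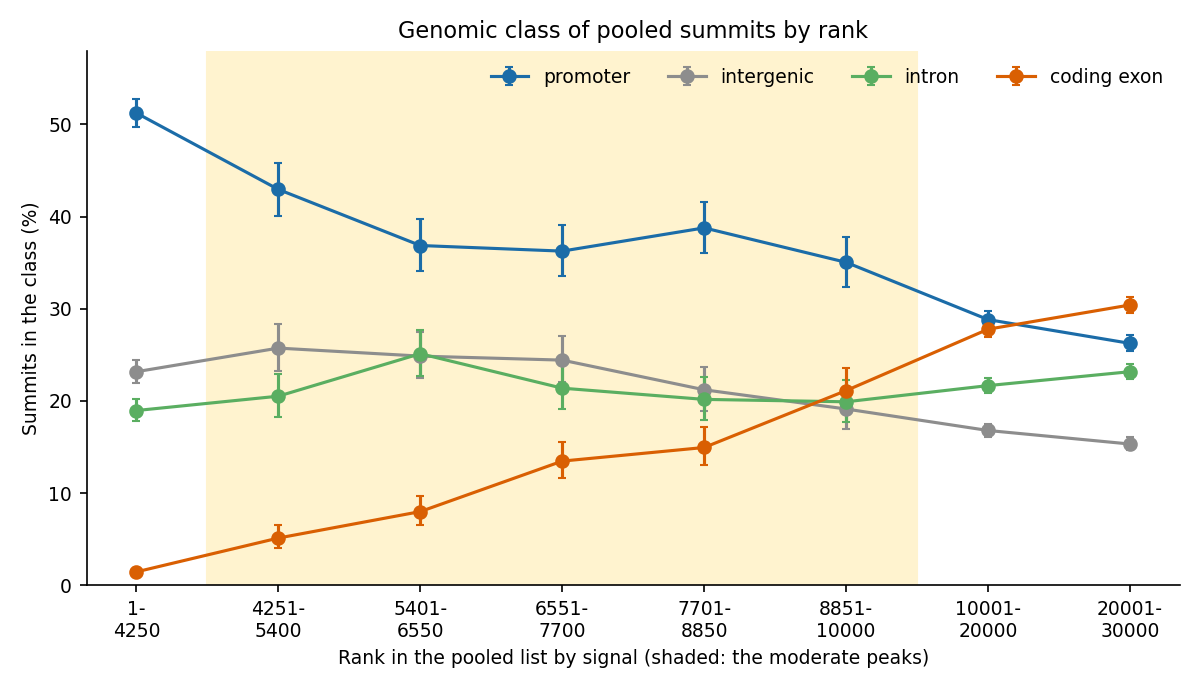
Share of summits in 4 genomic classes (y axis, percent) by rank in the pooled list (x axis), from the optimal list through 5 bins of 1150 moderate peaks (shaded) to the weaker peaks. Points are shares and bars are 95% Wilson intervals. The coding exon share climbs in each successive bin, to 21.1% in the last moderate bin, and the promoter share is 43% in the first.

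The members were not uniform. In 5 bins of 1150 members each, from strongest to weakest, coding exons held 5.13%, 8%, 13.5%, 15% and 21.1% of summits. The intervals of the first bin (3.998 to 6.56%) and the last (18.9 to 23.6%) did not overlap. The promoter share was 43% in the first bin and between 35 and 38.8% in the other 4, whose intervals overlapped. A peak was in both replicate lists for 83.5% of the first bin and 50% of the last. Members lay a median of 1093.5 bp from the nearest protein-coding start, against 747 bp for optimal peaks, and 59.7% of members were upstream of that start, against 74.6% of optimal peaks.

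The 721 coding exon members were spread over many genes. Of them 378 (52.4%) were in both replicate lists, 272 (37.7%) in replicate 1 alone and 69 (9.57%) in replicate 2 alone. The 721 fell in the bodies of 659 protein-coding genes, of which 587 held 1 and 4 held 4 each: scd-1, unc-70 (beta-spectrin), vab-10 (the spectraplakin of hemidesmosomes) and ret-1 (the reticulon). Members seen in replicate 1 alone were in coding exons in 36.6% of cases, those in replicate 2 alone in 5.92%, a difference of 30.6 points (26.9 to 34.4). Members in both lists stood between, at 9.87%. Intergenic summits showed the opposite, with 12.1% of members of replicate 1 alone and 29.5% of those of replicate 2 alone. The GC content of the 101 bp at the summit moved with this split. It averaged 48.3% ± 7.66 (SD over 744 members) in replicate 1 alone and 41.4% ± 5.99 (SD over 1165 members) in replicate 2 alone. Its part in the difference was not tested. The replicates' own lists differed in the same way. At the ranks of its own list that the members take in the pooled one, replicate 1 had 29% of summits in coding exons and replicate 2 had 5.81%.

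**Figure D3:**
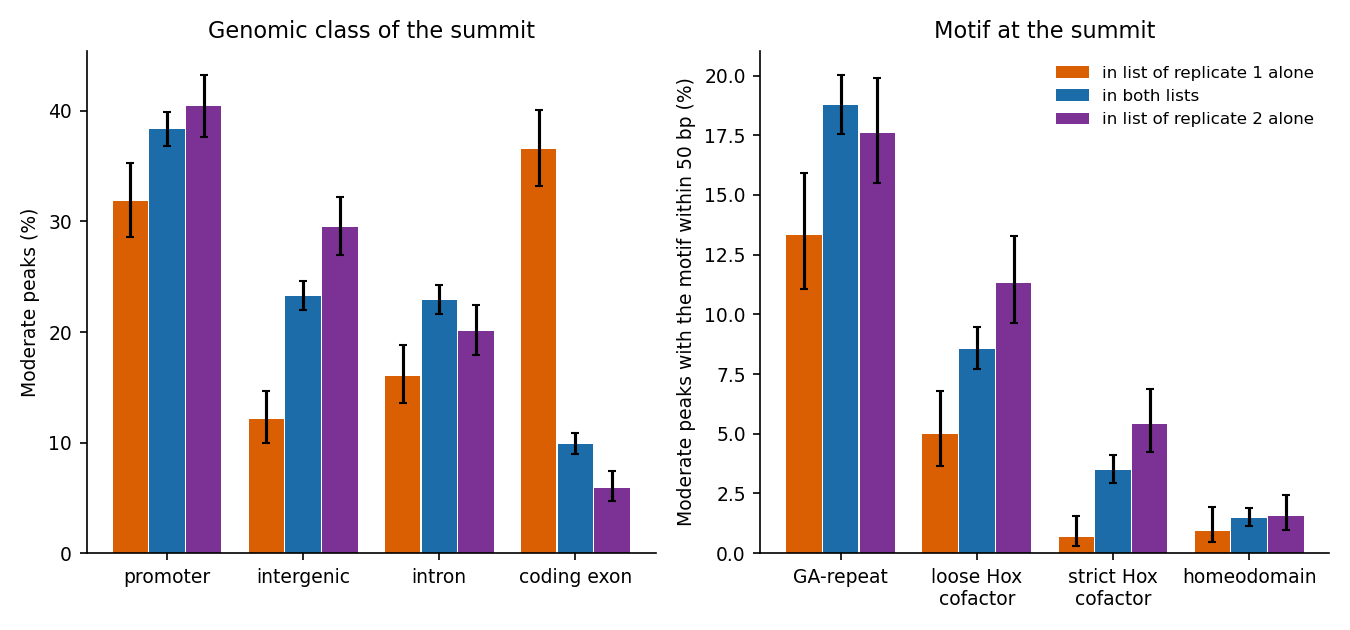
Moderate peaks split by the replicate list that holds them, with 744 peaks in replicate 1 alone, 3831 in both and 1165 in replicate 2 alone. The left panel shows the share in each of 4 genomic classes and the right panel the share with a GA-repeat (GAGAGA), loose (TGATNNAT) or strict (TGATTNAT) Hox cofactor or homeodomain (TTAATTA) motif within 50 bp of the summit, with 95% Wilson intervals. Coding exons reach 36.6% in replicate 1 alone and the strict Hox cofactor motif 5.41% in replicate 2 alone.

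Both strands were searched for 7 motifs in the 50 bp to either side of a summit, and in a window of equal length centred 500 bp to the right. The Hox cofactor motif was taken as TGATNNAT and in the stricter form TGATTNAT, every match of which is also a match of the looser one. The E-box CACGTG reads the same on both strands, and the homeodomain motif TTAATTA does not. The other 3 were the GA repeat GAGAGA, the motif AGATAA of GATA-type factors and the B box of tRNA genes, GGTTCGA. A match is a run of letters and does not show which factor binds there, and the lack of a match does not show that a factor is absent. The tests are exact two-sided McNemar tests over peaks with Benjamini-Hochberg adjustment over the 7 motifs. They take peaks as independent and measure no spread between animals.

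GAGAGA was the motif most concentrated at the members' summits. It was within 50 bp of 1026 summits (17.8%, 16.9 to 18.9%), against 340 windows beside them (5.91%), a ratio of 3.02 (adjusted p = 3.4e-89, exact McNemar test). It was present at 13.4% of all pooled summits and in 5.18% of 992797 windows of 101 bp tiled along the genome. Among optimal peaks it was at 28.2% of summits, so the members were lower by 10.4 points (interval of the difference −12 to −8.70), and higher than the weaker peaks (8.99%) by 8.85 points (7.80 to 9.94). In the 40-bp bins to either side of the summit, 8.45% and 8.21% of members had a match, against 13.9% and 13.2% of optimal peaks, while bins 500 bp away held 2.40 to 2.82% and 2.05 to 2.64%. Within promoters alone the motif was at 19.6% of members, against 25.9% of optimal peaks, a difference of −6.30 points (−8.77 to −3.81). Members between genes had it in 20.9% of cases and those in introns in 18.4%. Coding exon members had it in 6.80% of cases, near the 6.10% of windows beside them. On X 14.5% of members held it (12.7 to 16.5%), against 18.9% on the autosomes (17.7 to 20%). In the members' successive rank bins its share was 20.8%, 21.3%, 17%, 17.3% and 12.9%.

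The Hox cofactor sites were only slightly more frequent at the summits than beside them. TGATTNAT was at 201 members (3.50%, 3.05 to 4.002%), against 142 windows beside them (2.47%, adjusted p = 0.0034, exact McNemar test), 2.8% of all pooled summits and 2.65% of genome windows. TGATNNAT was at 499 members (8.68%), against 412 windows beside them (7.17%, adjusted p = 0.0050, exact McNemar test), 7.93% of all pooled summits and 7.88% of genome windows. Neither difference passed with a wider window of 100 bp on each side (adjusted p = 0.085 for TGATTNAT and 0.20 for TGATNNAT, exact McNemar tests). The members differed from the optimal list by −0.36 points for TGATTNAT (−1.13 to 0.38) and by −0.24 points for TGATNNAT (−1.38 to 0.88) over all classes. By class the TGATTNAT difference was −2.81 points in introns (−5.005 to −0.80), with 4.14% of members against 6.95% of optimal peaks. In promoters it was 1.00 point (−0.03 to 2.04). They were above the weaker peaks, by 1.13 points (0.63 to 1.67) for TGATTNAT, which in weaker peaks was no more frequent at summits (2.37%) than beside them (2.46%). TGATTNAT lay within 10 bp of 62 member summits (1.08%).

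The excess of Hox sites was seen in replicate 2 and not in replicate 1. TGATTNAT was at 5 of 744 members seen in replicate 1 alone (0.67%), at 133 of 3831 in both (3.47%) and at 63 of 1165 in replicate 2 alone (5.41%). The difference between replicate 1 alone and replicate 2 alone was −4.74 points (−6.24 to −3.27), and for TGATNNAT −6.36 points (−8.72 to −3.88). At the same ranks of its own list, replicate 2 had TGATTNAT at 4.31% of summits, against 2.85% of windows beside them (adjusted p = 5.5e-05, exact McNemar test). In the same ranks replicate 1 had 2.24% at summits, against 2.38% beside them (adjusted p = 0.78, exact McNemar test). GAGAGA was in excess at the summits in both, with 13.1% in replicate 1 against 5.76% beside, and 18.6% in replicate 2 against 5.79% beside. Replicate 1's summits had the higher GC content (46.3% ± 7.30 at those ranks, against 42.2% ± 7.30 in replicate 2, SD over 5750 peaks each), and the part of base composition in the motif shares was not tested.

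**Figure D4:**
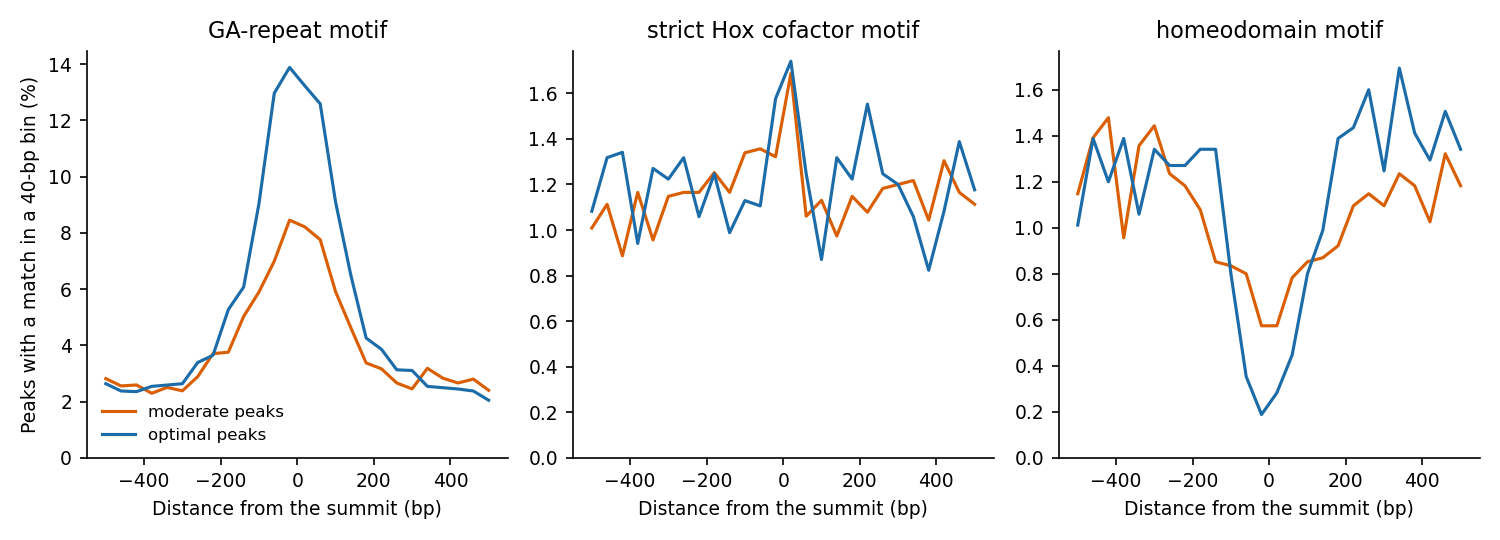
Share of peaks (y axis, percent) with at least 1 match of a motif on either strand in each 40-bp bin around the summit (x axis, bp from the summit), for moderate and optimal peaks, with no error shown. The panels are GAGAGA, TGATTNAT and TTAATTA. The GA repeat peaks at the summit in both sets, at 8.45% in moderate and 13.9% in optimal peaks, and the homeodomain motif dips there.

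Of the other 4 motifs, TTAATTA was rarer at the summits than beside them under every setting run, and AGATAA was so in the window of 50 bp. TTAATTA was at 82 members (1.43%), against 167 windows beside them (2.90%, adjusted p = 2.4e-07, exact McNemar test), 1.2% of all pooled summits and 2.68% of genome windows. The optimal peaks had it at 0.61% of summits, 0.81 points below the members (0.42 to 1.21). In replicate 1's own list the same difference was 0.22 points with an interval that includes 0 (−0.14 to 0.55). AGATAA was at 4.87% of members, against 6.05% beside (adjusted p = 0.0080, exact McNemar test), 4.51% of all pooled summits and 5.88% of genome windows. This call was lost with 25 bp on each side (adjusted p = 0.35), with 100 bp (0.11) and in replicate 2's own list at the same ranks (0.72), by exact McNemar tests. Both motifs are rich in A and T, and the GC content at member summits averaged 44.8% ± 7.22, against 36.0% ± 8.94 beside them (SD over 5750 windows each). Its part in these shares was not tested. CACGTG was at 2.82% of members, against 2.05% beside (adjusted p = 0.012, exact McNemar test) and 2.77% of all pooled summits, and this call was lost with 25 bp on each side (adjusted p = 0.10, exact McNemar test). GGTTCGA was at 1.43% of members, against 1.03% beside (adjusted p = 0.058, exact McNemar test) and 1.37% of all pooled summits.

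The X chromosome held more of the members than its share of the sequence. There were 1344 members on X (23.4%, 22.3 to 24.5%), which is 17.7% of the sequence, and 19.6% of all pooled peaks were there. This was 75.9 members per Mb on X, against 42.4 on chromosome V, the lowest, and 66.1 on chromosome I, the highest of the autosomes. The optimal list had 22.8% of its peaks on X, a difference of 0.53 points (−1.15 to 2.19), and the weaker peaks had 17.9%, a difference of 5.5 points (4.30 to 6.73). Promoters held 31.9% of the members on X (29.5 to 34.5%), against 39.8% of those on the autosomes (38.4 to 41.3%). Members seen in replicate 1 alone were on X in 17.7% of cases and those of replicate 2 alone in 22.6%. At the same ranks of their own lists, replicate 1 had 19% of its peaks on X and replicate 2 had 23.8%.

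Members lay nearer to optimal summits than the weaker peaks did. An optimal summit was within 1000 bp of 803 members (14%, 13.1 to 14.9%), against 9.28% of weaker peaks, a difference of 4.69 points (3.73 to 5.69). The median distance was 4171.5 bp for members and 6753 bp for weaker peaks, and no member was nearer than 199 bp.

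For genes, a member was counted where its summit fell inside a protein-coding gene or up to 2000 bp before it. In this sense 4204 of 19973 genes had a member (21%), and 3842 had an optimal summit. Both were present in 1514 genes, which are 39.4% of the genes with an optimal summit. Members reached 2690 genes that had no optimal summit, 16.7% of the 16131 such genes. Of the 5750 members, 4680 lay in at least 1 gene window, and 1080 genes held more than 1 member. Longer genes have more room: the median window was 4027 bp over all genes and 5296.5 bp over those with a member. Counts for lists of named genes are therefore given with their median window, and the part of length was not tested. A summit can fall in the windows of several genes, so a gene with a member need not be the one whose start is nearest. Of the members named below, those at mab-5, lin-31, zmp-1, mek-2, cha-1, mcm-3, cdk-1, rpl-11.1 and mrpl-39 were nearest to the start of another gene. The same held at mrps-23, pas-7, pbs-6, ugt-62, nhr-15, ceh-21, ceh-100, his-59 and his-61, and at some genes of large families marked in their place.

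Among the Hox genes and their cofactors, 5 of 11 had a member and 3 had an optimal summit, with a median window of 8524 bp. Over all protein-coding genes 21% had a member and 19.2% an optimal summit, with a median window of 4027 bp. Of the 8 Hox and cofactor genes without an optimal summit, 2 had a member, against 16.7% of such genes over all. The Meis-family gene unc-62 had 7 members and 4 optimal summits. Its members spanned its promoters, introns and 5′ UTRs between chrV:4499679-4499994 and chrV:4507289-4507604. The strongest, 41 bp inside a transcript start, had a signal of 28.4 and ranks 4285 in replicate 1 and 4024 in replicate 2. Of the 7, 3 had no peak in replicate 2. The Pbx-family gene ceh-20 had 1 member, in a coding exon (chrIII:6980185-6980500, signal 17.1, ranks 5728 and 16103), beside 1 optimal summit. The Hox gene mab-5, the posterior neighbour of lin-39 on chromosome III, had 1 (chrIII:7778561-7778876, signal 29.5, ranks 14732 and 4897), beside 2 optimal summits. The 2 genes reached by a member without an optimal summit were the Pbx-family gene ceh-60 and the posterior Hox gene nob-1. The member at ceh-60 lay 1995 bp upstream of its start (chrX:6531983-6532298), had a signal of 22.4 and was absent from replicate 1. The member at nob-1 lay in an intron (chrIII:12082137-12082452), with a signal of 20.2 and ranks 5293 and 23082. No member lay in the windows of lin-39, ceh-13, egl-5, php-3, ceh-40 or psa-3.

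Of 14 genes that earlier studies tie to LIN-39, 9 had a member and 6 an optimal summit, with a median window of 5968.5 bp. The shares over all protein-coding genes were 21% and 19.2%, and their median window was 4027 bp. A member was at 5 of the 8 LIN-39-tied genes without an optimal summit, against 16.7% of such genes over all. The list was chosen with earlier results known and its counts were not tested. The 5 reached by a member alone had 1 member each, with a signal below the median of 21.7 over all members. That signal is the value that chose the members, so this was not tested. They were eff-1, the cell fusion protein (21, ranks 14644 and 4596), lin-31, a winged-helix factor of the vulval precursors (17.5, ranks 25061 and 9870), lin-1, an ETS factor (17.3, replicate 2 alone at rank 5965), lag-2, a Notch ligand (17.1, replicate 1 alone at rank 4483), and elt-6, a GATA factor (17, replicate 1 alone at rank 8924). None of the 5 was in the top ranks of either replicate. The members at lag-2 and elt-6 were in promoters, 334 and 202 bp before the start, and the one at elt-6 (chrIV:1917617-1917932) held both GAGAGA and AGATAA.

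Vulval fate and morphogenesis genes had a member in 11 of 25 cases and an optimal summit in 5, with a median window of 7044 bp. Over all genes the shares were 21% and 19.2%, and the median window 4027 bp. Of the 20 vulval genes without an optimal summit, 10 had a member, against 16.7% of such genes over all. Besides eff-1, lin-31, lin-1 and elt-6, the 10 vulval genes with a member alone were zmp-1, smp-1, egl-43, plx-1, vab-15 and fos-1. The strongest was at zmp-1, a matrix metalloproteinase of the anchor cell, in a coding exon (chrIII:5928918-5929233, signal 28.9, ranks 3266 and 8149). The semaphorin gene smp-1 had 1 in an intron (27.3, ranks 5741 and 7783). Its receptor, the plexin gene plx-1, had 1 that lay 1502 bp upstream (chrIV:957861-958176, signal 21.9, ranks 12838 and 5187), and this member held TGATTNAT, GAGAGA and GGTTCGA within 50 bp. The zinc-finger gene egl-43 had 2, the stronger 76 bp before a start (26.4, ranks 9326 and 10500). The Msx-type homeobox gene vab-15 (19.5) and fos-1, the Fos factor of anchor cell invasion (17.9), were seen in replicate 1 alone, at ranks 5606 and 7834. The counts overlap with those of the previous list, since several genes belong to both.

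In the EGF-Ras and Notch pathways, which pattern the vulva, members were at 19 of 30 genes and optimal summits at 13, with a median window of 10089.5 bp. Over all genes 21% had a member and 19.2% an optimal summit, with a median window of 4027 bp. Of the 17 genes of these pathways without an optimal summit, 9 had a member, against 16.7% of such genes over all. Among the 9 genes with a member alone, the strongest was at ark-1, a kinase that restrains EGF receptor signalling. It lay 1463 bp upstream (chrIV:12632327-12632642), had a signal of 32.5, rank 1604 in replicate 2 and no peak in replicate 1, and held TGATTNAT. The Raf scaffold gene ksr-1 had 2 members (strongest 28.7), and mek-2, the MAP kinase kinase, and lin-25 had 1 each (28.5 and 27.8), with ranks between 4257 and 7432 in the 2 replicates. In Wnt signalling members were at 11 of 22 genes and optimal summits at 8, with a median window of 6365 bp. A member was at 5 of the 14 Wnt genes without an optimal summit. The beta-catenin gene bar-1, which regulates lin-39 in vulval precursors, had a member in a coding exon (chrX:7170028-7170343, 31.5, ranks 18272 and 4697). The Frizzled gene lin-17 had 3, the strongest 549 bp upstream with TGATTNAT (29.3, replicate 2 alone at rank 3067). The beta-catenin gene wrm-1 (26.4) and the Wnt ligand gene cwn-1 (21.9) had 1 each.

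**Figure D5:**
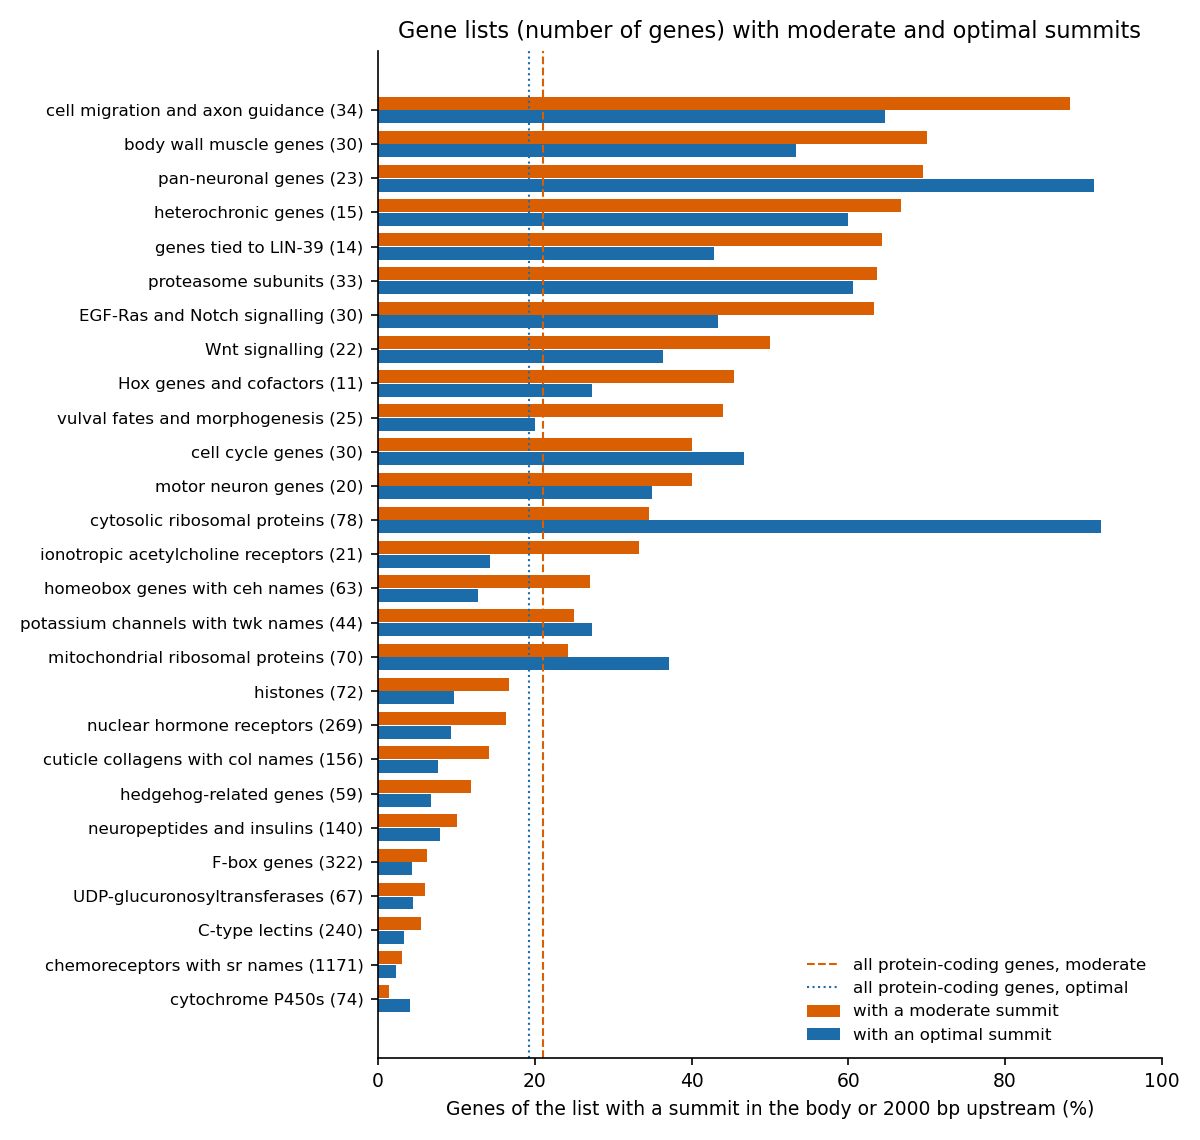
Share of the genes of each list (x axis, percent; number of genes in brackets) with a moderate summit and with an optimal summit in the gene or up to 2000 bp upstream. Dashed and dotted lines give the shares over all protein-coding genes, 21% and 19.2%, and window lengths differ between lists. Cell migration genes reach 88.2% for moderate peaks, and cytosolic ribosomal protein genes 34.6% for moderate against 92.3% for optimal peaks.

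Cell migration and axon guidance genes had the largest share of the 27 lists, 30 of 34 with a member and 22 with an optimal summit, and also the longest median window, 10446.5 bp. Over all genes 21% had a member and 19.2% an optimal summit, with a median window of 4027 bp. Of the 12 migration and guidance genes without an optimal summit, 10 had a member, against 16.7% of such genes over all. The 10 included mig-15, a kinase of neuroblast migration (28, in a coding exon, ranks 9251 and 5363), ina-1, an integrin alpha subunit (26.4, ranks 8651 and 4253), and slt-1, the Slit ligand (23.9, replicate 2 alone at rank 4591). Motor neuron genes had a member in 8 of 20 cases and an optimal summit in 7 (median window 7379.5 bp). The 5 with a member alone included unc-46 of GABA neurons (28.2), the acetylcholine receptor gene acr-2 (27.9, ranks 3112 and 10997), cha-1, choline acetyltransferase (25.17), and cho-1, the choline transporter (22.9, in a coding exon, replicate 1 alone at rank 2713). Pan-neuronal genes were mostly in the optimal list already, 21 of 23, and 16 had a member (median window 8134 bp). The 1 with members alone was unc-10, the RIM protein of active zones, with 6 members, the strongest at 32.2 in an intron (chrX:7279916-7280231, ranks 4466 and 3029). That count depends on the window: it was 5 genes with 1000 bp upstream of the gene and 0 with 5000 bp.

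Body wall muscle genes had a member in 21 of 30 cases and an optimal summit in 16 (median window 7009.5 bp). The shares over all genes were 21% and 19.2% (median window 4027 bp). Of the 14 muscle genes without an optimal summit, 10 had a member, against 16.7% of such genes over all. Among the 10 with a member alone, tnt-2, a troponin T, had the strongest, 524 bp upstream (32.5, ranks 21201 and 2334). It was followed by unc-68, the ryanodine receptor (30.9, ranks 2665 and 7713), unc-95, a LIM protein of muscle attachments, with GAGAGA (29.5, ranks 4357 and 9747), and the actin gene act-1 (27.4, ranks 2687 and 24595). Cell cycle genes had a member in 12 of 30 cases and an optimal summit in 14 (median window 5500.5 bp). Those with the strongest members alone were mcm-3 of the replicative helicase (32.1, ranks 1861 and 20819), cul-1 (30.3, replicate 2 alone), the phosphatase gene cdc-25.2 (29.7, ranks 4360 and 9736) and the kinase gene cdk-1 (25.199). Of the heterochronic genes, which time larval events, 10 of 15 had a member and 9 an optimal summit (median window 9152 bp). The 3 with a member alone were all transcription factors: blmp-1 (28.1, replicate 1 alone at rank 1666), nhr-25 (24.1) and nhr-23 (20.1, replicate 1 alone at rank 5509).

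Genes of the ribosome and the proteasome have short windows, against a median of 4027 bp over all genes. Over all genes 21% had a member and 19.2% an optimal summit. Cytosolic ribosomal protein genes, with a median window of 2753.5 bp, had an optimal summit in 72 of 78 cases and a member in 27. Of the 6 left, 4 had a member: rpl-11.1 (31.5), rpl-42 (30.8), rps-7 (28.0) and rps-2 (19.1). Mitochondrial ribosomal protein genes (median window 3125.5 bp) had a member in 17 of 70 cases and an optimal summit in 26, and 13 had a member alone, the strongest at mrps-18C (31.5), mrpl-39 (30.9), mrps-12 (29.2) and mrps-23 (26.5). Proteasome subunits, with a median window of 3490 bp, below that of all genes, had a member in 21 of 33 cases and an optimal summit in 20. Only 2 of the 33 had neither. Members alone were at 11, the strongest at pbs-7 (30.8, ranks 5792 and 4806), rpn-13 (30.1, ranks 5255 and 2592), pas-7 (28.1) and pbs-6 (27). Each of those named was classed as a promoter summit, but not always by its own gene. The pbs-6 member lay inside pbs-6, and its nearest start was that of C02F5.12, 490 bp away. For the pas-7 member the nearest start was that of puf-12.

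Several large gene families had members at a smaller share of their genes than the 21% over all genes. Members were at 35 of 1171 chemoreceptor genes with sr names (2.99%), 13 of 240 C-type lectins (5.42%), 20 of 322 F-box genes (6.21%), 4 of 67 UDP-glucuronosyltransferases, 1 of 74 cytochrome P450s and 14 of 140 neuropeptide and insulin genes. Optimal summits were as sparse there, against 19.2% over all genes. In the same order their shares were 2.31%, 3.33%, 4.35%, 4.48%, 4.05% and 7.86%. Median windows ran from 2888 bp (neuropeptides and insulins) to 4519 bp (UDP-glucuronosyltransferases), against 4027 bp over all genes. The strongest with no optimal summit were srh-89 (31.7), sro-1 (31.5), srh-24 (29.6) and srsx-26 (29.0) among chemoreceptors, clec-78 (27.3), clec-172 (26.5), clec-90 (25.7) and clec-104 (23.5) among lectins, and fbxa-24 (28.6), fbxa-192 (25.26), fbxa-89 (22.2) and fbxa-65 (21.9) among F-box genes. At srh-89, srh-24, srsx-26, clec-78, clec-104 and fbxa-89 the nearest start belonged to another gene. The detoxification genes were cyp-35A4 (19.7), ugt-63 (17.3) and ugt-62 (16.5). Among neuropeptides they were nlp-14 (30.4), flp-4 (29.8), flp-18 (27.1) and ins-27 (22.9), and the member at flp-4 held TGATTNAT.

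Nuclear hormone receptors had a member in 44 of 269 cases (16.4%) and an optimal summit in 25, against 21% and 19.2% over all genes. Those with a member alone were led by nhr-15 (32.5), nhr-228 (31), nhr-119 (29.3) and nhr-71 (27.9). TGATTNAT was at the members of nhr-15 and nhr-71, of which the first lay 9 bp from the start of phf-10. Homeobox genes with ceh names had a member in 17 of 63 cases (27%) and an optimal summit in 8, led by ceh-83 (30.3, replicate 1 alone), ceh-43, a Distal-less homologue (28.9), ceh-21 (28.5) and ceh-100 (28.3). GAGAGA was at the members of ceh-43, ceh-21 and ceh-100, and the nearest start was that of T26C11.9 at ceh-21 and of lips-15 at ceh-100. Acetylcholine receptor genes had a member in 7 of 21 cases and an optimal summit in 3 (median window 6167 bp). Those with a member alone included acr-23 (25.5), acr-14 (24.6) and acr-8 (20.7). Potassium channels with twk names had a member in 11 of 44 cases and an optimal summit in 12 (median window 6629.5 bp). With a member alone were, among others, twk-20 (27.2), twk-49 (26), twk-17 (23.4, with TGATTNAT) and twk-18 (22.6). Cuticle collagens had a member in 22 of 156 cases, all 22 without an optimal summit. These were 15.3% of the 144 collagen genes without an optimal summit, near the 16.7% of such genes over all. The strongest were at col-103 (30.3), col-81 (29.9), col-54 (28.7) and col-68 (26.2). Another 12 collagen genes had an optimal summit (median window 3220 bp). Hedgehog-related genes had a member in 7 of 59 cases and an optimal summit in 4 (median window 3784 bp). Those with a member alone included wrt-2 (30.7), grd-6 (30.2), wrt-5 (22.8) and grl-15 (22.2). Of 72 histone genes 12 had a member and 7 an optimal summit (median window 2384 bp). Among those with a member alone, his-59, his-60 and his-61 share a single one (31.1), with his-42 next (24.6).

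The genes with the most members were long and mostly held optimal peaks too. The MAP kinase interacting kinase gene mnk-1 (chrII:10542421-10555044) had 13 members and 5 optimal summits in its window. The DYRK kinase gene mbk-2 had 12 and 2, kin-1, the catalytic subunit of protein kinase A, 11 and 8, and the kinase gene scd-1 10 and 4. T28B11.1 had 9 and 8, one of 6 genes tied at 9 and named by alphabetical order. Both replicates had a peak at 9 of the 13 members of mnk-1, at 9 of the 12 of mbk-2 and at 4 of the 10 of scd-1. Among genes without an optimal summit, chosen after the counts were seen, unc-2, a neuronal calcium channel gene of 52607 bp, had the most, with 9 members and 14 weaker summits, followed by lmd-3 with 8, and ddr-2, a discoidin domain receptor, and vab-10 with 7 each.

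A smaller share of members than of optimal peaks lay near tRNA and snoRNA genes. A tRNA gene was within 200 bp of 95 members (1.65%, 1.35 to 2.02%), against 168 optimal peaks (3.95%, 3.41 to 4.58%) and 118 weaker ones (0.59%). At those 95 members the B box GGTTCGA was present in 36 (37.9%), against 58 of the 168 optimal peaks (34.5%). The strongest were at the tRNA genes WBGene00023038 (32.7), WBGene00014361 (32.6), WBGene00023070 (32.6) and WBGene00023125 (32.4), of which all but the first are on X. Of the 95, 42 were on X (44.2%), against 69 of the 168 (41.1%). The share of all 612 annotated tRNA genes that lies on X is not given here, so these shares cannot show a preference for X. A snoRNA gene was near 34 members (0.59%, 0.42 to 0.83%), against 89 optimal peaks (2.09%, 1.70 to 2.57%) and 0.28% of weaker peaks. The strongest of these members were at C15F1.15 (32.9), F17C11.24 (32.7), C05H8.3 (32.5) and ZK546.18 (32.4). For snRNA genes the counts were 11 members (0.19%), against 14 optimal peaks (0.33%) and 0.115% of weaker peaks. The intervals of members and optimal peaks overlapped. The members were led by those at the spliced leader genes sls-2.2 (33), sls-2.14 (32.1) and sls-2.18 (29.8) and at R07E5.16 (30.4).

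For miRNA genes the share was 0.26% of members (15), 0.26% of optimal peaks (11) and 0.175% of weaker peaks. The strongest were at mir-8211 (31.5), mir-8205 (28.8), mir-73 (26.1) and mir-4934 (24.3). At a distance of 100 bp the count of members fell to 7. For lincRNA genes 30 members (0.52%) stood against 27 optimal peaks (0.64%) and 0.36% of weaker peaks. The strongest of these members were at linc-91 (31), linc-147 (30.9), linc-146 (30.9, replicate 2 alone) and linc-156 (30.4, with TGATTNAT). Antisense RNA genes had 7 members and 7 optimal peaks (0.12% and 0.16%), against 0.15% of weaker peaks. The members were led by those at anr-25 (31.8), Y37E11B.16 (31.7), anr-20 (28.9) and anr-5 (26.4). ChIP peaks have no strand, so a peak at such a gene also counts for the gene opposite. No member was within 200 bp of any of the 20 annotated rRNA genes, and no optimal peak was.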

How the data were processed

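The values are peak lists deposited by the authors for 2 biological replicates of eGFP-tagged LIN-39 ChIP-seq, with fragments of 150 to 350 bp per the labels. The signal of each peak and its −log10 q-value are the authors' peak caller's values as deposited, relative to control alignments that both replicates share. The summit is the offset deposited by the authors. For the aligner, the caller and its settings, and the reproducibility threshold, the entry is: not given in the sources used here. No read counts are in these files, so depth is unknown, and all intervals cover the counting of peaks only.

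Pooled peaks on ce11 were sorted by signal and ranks 4251 to 10000 kept, the optimal list being ranks 1 to 4250. The members and the gene lists were chosen with earlier results of these data known. Coordinates are 1-based on ce11, the genome browser name of the assembly WBcel235, whose RefSeq sequence was searched. Genes are those of Ensembl release 115. A summit was put in the first class that applied: promoter, then either UTR (5′ first), coding exon, intron, exon of another gene type, intergenic. Of the entries of 27 gene lists (11 of named genes, 16 families by name), 2 had no gene of that name. Motif shares at summits and 500 bp to the right were compared by exact McNemar tests with Benjamini-Hochberg adjustment and a threshold of 0.05. Differences between sets carry 95% Newcombe intervals, shares 95% Wilson intervals. Pooled signals and ranks were used by the choice and were not tested. The functions were tested on simulated sequence and small made-up annotations. Python 3.11.15, NumPy 2.4.6, pandas 2.3.3 and SciPy 1.17.1 were used.

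Named are the 8 members with the smallest worse rank in the 2 replicates, the 4 strongest of each replicate with no peak in the other, members with TGATNNAT near the summit, genes with a member and no optimal summit (all of them in the first 3 lists, up to 4 by signal elsewhere), the 5 genes with the most members, up to 4 genes per noncoding class, and the peaks at both limits. A signal beside a gene is that of its strongest member.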

Additional observations from a re-analysis of the deposited data

How the results depend on the processing

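Results were recomputed under other windows, classes and gene ranges, and in each replicate's own list, at the same ranks, in place of the pooled one. Of 165 values, 114 kept their direction and their side of the threshold, or stayed within the interval or 1.5 times the count. The excess of GAGAGA at the summits and the deficit of TTAATTA held in all 7 alternatives run for each. Summit minus flank shares, in points, otherwise changed as follows, with p adjusted over the motifs. With 25 bp on each side, AGATAA (−0.30, p = 0.35) and CACGTG (0.38, p = 0.10) no longer passed, and GGTTCGA did (0.31, p = 0.045), all by the exact McNemar test. With 100 bp, TGATNNAT (0.89, p = 0.20), TGATTNAT (0.83, p = 0.085) and AGATAA (−0.99, p = 0.11) did not pass, and GGTTCGA did (0.63, p = 0.033), all by the same exact test. GGTTCGA also passed against a window to the left (0.61, p = 0.0034) and without members near an optimal summit (0.49, p = 0.038), both by the same exact test. Leaving out a replicate gave 0.052 to 2.68 for TGATNNAT, −0.14 to 1.46 for TGATTNAT (reversed in replicate 1's own list), −1.34 to −0.17 for AGATAA and 0.35 to 0.64 for GGTTCGA. In replicate 2's own list AGATAA no longer passed (adjusted p = 0.72, exact McNemar test) and GGTTCGA did (adjusted p = 0.0011, exact McNemar test). The differences of members minus optimal peaks reversed for TGATNNAT with 100 bp (0.77) and in the replicates' own lists (0.24 to 0.55), for TGATTNAT with 100 bp (0.23) and for CACGTG in replicate 1's list (0.053, and −0.67 in replicate 2's), all with intervals that include 0. They lost their side for GGTTCGA with 25 bp (−0.23), and spanned −0.82 to −0.33 for GGTTCGA and 0.22 to 0.55 for TTAATTA in the replicates' lists. The interval includes 0 for TTAATTA in replicate 1's list and for GGTTCGA in replicate 2's.

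The promoter share was 26.4% for a promoter of 500 bp upstream to 100 bp downstream, which also put the coding exon share at 14.7%. In the replicates' own lists promoters were 31.4 to 39.6%, coding exons 5.81 to 29%, chromosome X 19 to 23.8% and peaks within 1000 bp of a summit of the top ranks 12.3 to 16%. Within 500 bp, 3.03% of members were near an optimal summit. Both replicate lists held 56.3% of members where 50% of the member had to be covered, and 46.4% by summits within 100 bp. Members within 100 bp of a miRNA gene numbered 7. The count of 2690 genes with a member and no optimal summit ranged from 2416 to 3211. Of 54 gene list counts under other ranges, 37 stayed within 1.5 times. Among lists of named genes, the count of genes with a member alone became 1 (Hox genes and cofactors) and 5 (pan-neuronal) with 1000 bp upstream, and 2 (Wnt), 0 (pan-neuronal), 8 (motor neuron) and 5 (muscle) with 5000 bp. The cause of these changes was not tested.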
